A study of Mus musculus with 16 samples.

Results

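The chromatin of the fibrillar collagen genes Col1a1, Col1a2 and Col3a1 was examined in murine mesenchymal stem cell (MSC) lines with and without Dicer. The genes were taken as mm9 windows around each of them, chr11:94790000-94820000 for Col1a1, chr6:4450000-4495000 for Col1a2 and chr1:45360000-45410000 for Col3a1, and every peak that overlapped a window by at least 1 bp was used. When the peaks of the 4 libraries of a mark were merged where they overlapped or touched, 10 of the 89014 regions of the series fell in these windows, 4 at Col1a1, 3 at Col1a2 and 3 at Col3a1. The 12 ChIP-seq libraries came from immortalized monoclonal C57BL/6 MSC lines grown in Alpha-MEM with serum. WT cells carried floxed, undeleted Dicer (Dicer f/f), KO cells were Dicer -/-, and H3K4me3, H3K36me3 and H3K27me3 each had 2 libraries per genotype. The cells were immortalized clones, and the labels do not say how many clones or separate cultures stand behind the replicates, so every p-value measures only the spread between these libraries.

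Col1a1 and Col1a2 encode the alpha1 and alpha2 chains that assemble into type I collagen, the main fibre of bone, tendon and skin, and Col3a1 encodes the single chain type of collagen III, which is laid down beside it in stretchable tissues and in wounds. All of them are matrix genes that MSCs and fibroblasts are known for. H3K4me3 marks active and poised promoters, H3K36me3 is deposited behind elongating RNA polymerase over gene bodies, and H3K27me3 is the mark of Polycomb repression. The genes are transcribed towards higher coordinates, so in each window the promoter side lies at the low end. No mm9 annotation was used, so gene starts and ends were not placed in the peaks: below, the start means the low end of the window where H3K4me3 was listed, and positions are distances from the window start. Dicer cuts microRNA precursors, and the miR-29 family, which depends on it, is known to bind the mRNAs of these collagens. Neither mRNA nor microRNA was measured in the lists used here.

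The promoters are shown because H3K4me3 is a promoter mark and was listed at the low end of every window. RefSeq's promoter table (GRCm38.p6, another build than that of the peaks, so the sequences were not placed in the peaks) held Col1a2 and Col3a1, 2 of the 3 genes; the entry not in it was Col1a1. Each line gives the 250 bases before the annotated start and the first 5 after it, on the + strand, chr6:4505368-4505622 for Col1a2 and chr1:45311288-45311542 for Col3a1. Capitals mark matches to any of 3 motifs, read on both strands. The TATA box was searched as TATAAA, the usual site of TATA-binding protein. The CCAAT box was searched as the letters of its name, and the GC box, a site of Sp1, as GGGCGG. No match overlapped another.
Col1a2: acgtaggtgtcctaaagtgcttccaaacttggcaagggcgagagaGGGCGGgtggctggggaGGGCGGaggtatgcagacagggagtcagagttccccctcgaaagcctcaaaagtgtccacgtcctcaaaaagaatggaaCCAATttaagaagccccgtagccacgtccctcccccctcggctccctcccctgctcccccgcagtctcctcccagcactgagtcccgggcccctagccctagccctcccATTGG
Col3a1: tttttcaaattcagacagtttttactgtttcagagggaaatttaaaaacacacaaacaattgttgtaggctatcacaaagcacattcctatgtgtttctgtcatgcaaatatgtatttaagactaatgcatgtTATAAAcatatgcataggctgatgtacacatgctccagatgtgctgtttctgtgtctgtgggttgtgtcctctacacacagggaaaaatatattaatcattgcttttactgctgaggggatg

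The sequences differ in base composition. Over the 300 bases of the table, Col1a2 had 13 CpG dinucleotides and 61% G or C, while Col3a1 had 0 CpG and 37.7% G or C. The median of the 32851 promoters in the table was 7 CpG and 52.7%, and 5.43% of them had no CpG. Col1a2 held 2 GC boxes, which begin 205 and 188 bases before the start, and CCAAT boxes beginning 109 bases before it and at base 1. Col3a1 held a TATA box that begins 117 bases before the start. Over all promoters the GC box was found in 35.7%, the CCAAT box in 37.4% and the TATA box in 13.6%. A match says only that these letters are present.

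The lists against whole-cell extract held 12726 to 23818 peaks for H3K4me3 and 33388 to 38637 for H3K36me3, without read counts, so sequencing depth is unknown and a deeper library may list more and wider peaks. In each mark and genotype, replicate 2 covered more of the genome than replicate 1. Every library also came with a difference list, read here as its peaks over the other genotype, although the labels do not name the control. A region is called WT-higher or KO-higher where a difference peak of that genotype overlaps it.

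H3K4me3 and H3K36me3 were listed at every collagen gene in at least 1 library of each genotype, and H3K27me3 at none. The windows held 37 peaks of the lists called against whole-cell extract, and none of the 8 H3K27me3 lists had a peak in any window. Nearest to Col1a2, H3K27me3 was listed 0.941 kb beyond the window end in KO replicate 2 and 8.07 kb beyond it in WT replicate 2, and for Col1a1 and Col3a1 the nearest H3K27me3 peak of any library lay 70 and 303 kb away. The H3K27me3 lists of replicate 1 were short, 703 peaks in KO and 2558 in WT against 17491 and 14932 in replicate 2. A list holds only what passed the caller's threshold, so weaker H3K27me3 is not measured, and in a culture a smaller share of marked cells and a weaker mark per cell cannot be told apart.

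**Figure D1:**
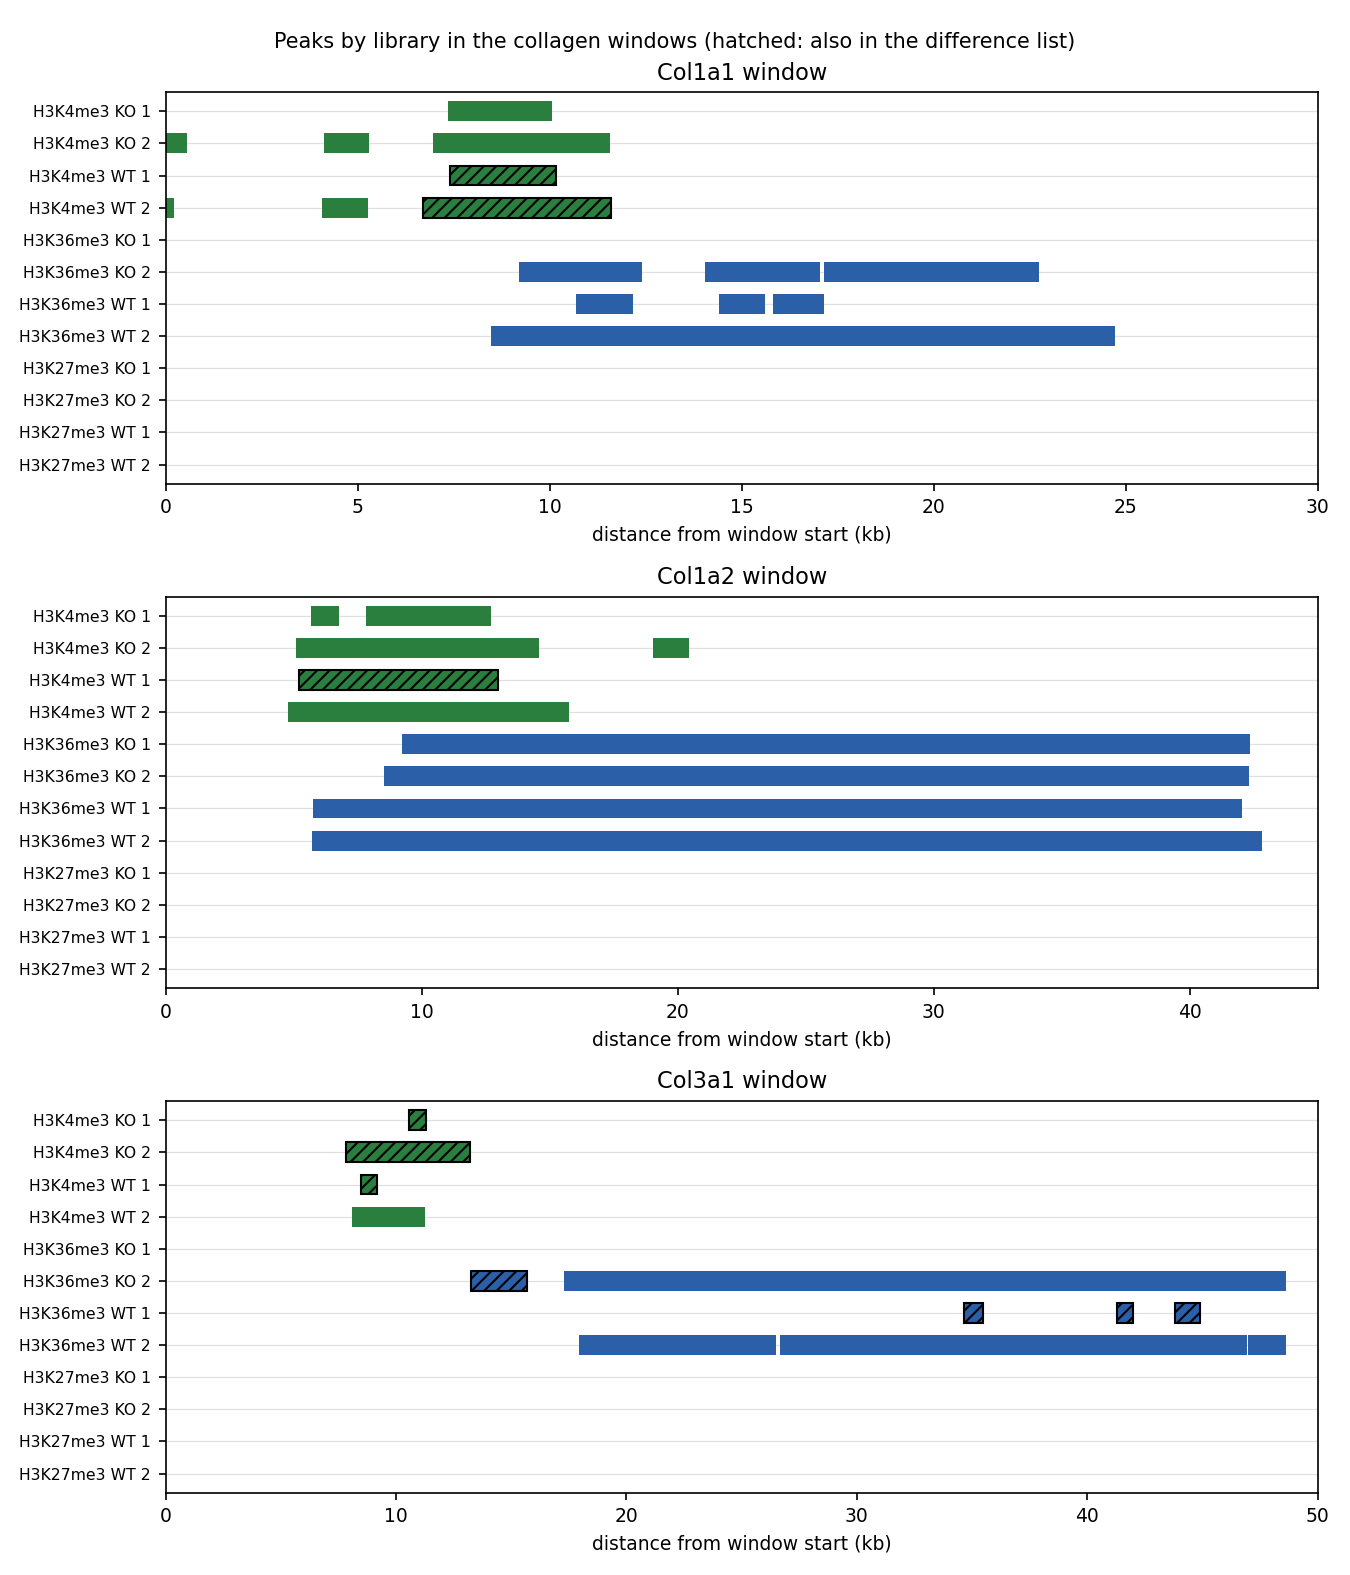
Peaks of the 12 ChIP libraries in the 3 windows, with the distance from the window start in kb on the x axis and a row for each mark, genotype and replicate. Filled bars are peaks against whole-cell extract and hatched bars are those also in the library's difference list. H3K4me3 lies towards the low end of each window, H3K36me3 is long in all 4 libraries at Col1a2 and short or absent in replicate 1 elsewhere, and the H3K27me3 rows are empty.

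H3K36me3 cover was most even at Col1a2. A single H3K36me3 peak ran over 33127 and 33769 bp in KO replicates 1 and 2 and over 36285 and 37115 bp in WT replicates 1 and 2. No other window had H3K36me3 of like length in all 4 libraries. These peaks were among the widest of their lists: 22 of 33388 and 92 of 35956 peaks in KO, and 42 of 38637 and 305 of 38062 in WT, were at least as wide. The merged region, chr6:4455723-4492837, was wider than or as wide as all but 0.975% of the 39794 H3K36me3 regions.

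The H3K36me3 peak at Col1a2 was listed shorter in both KO libraries, and the part not listed lay at the promoter side. Both KO libraries were below both WT libraries in covered length, 33448 ± 454 bp against 36700 ± 587 bp (SD, n = 2 each). The difference of -3252 bp had an exact two-sided permutation p of 0.333, which is the smallest that 2 against 2 libraries allow. The first base of the peak lay 9228 and 8551 bp into the window in KO and 5744 and 5723 bp in WT, a shift of 3156 bp towards higher coordinates (exact permutation p = 0.333). The far end, by contrast, fell within 809 bp in all 4 libraries, from 42028 to 42837 bp. Such an order was common in H3K36me3: 22.7% of all regions, and 31.6% of the 2929 regions with 1 peak in each library, had both WT libraries above both KO libraries in covered length. In 30.0% of those 2929 regions the edge at the lower coordinate lay further along in both KO libraries. No H3K36me3 difference peak of either genotype was called at Col1a2. The H3K36me3 lists themselves covered more length in WT than in KO of the same number, 108 and 177 Mb against 87.0 and 110.2 Mb. Relative to that total the genotypes overlapped at Col1a2, with 381 and 306 bp per Mb in KO against 335 and 210 bp per Mb in WT. The mean was then higher in KO (exact permutation p = 0.667).

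H3K4me3 at Col1a2 formed a domain that was also among the widest of the mark. The widest peak measured 4870 and 9486 bp in KO, against 7756 and 10965 bp in WT. In their lists, 243 of 16712 and 61 of 23818 peaks in KO, and 19 of 12726 and 30 of 18296 in WT, were at least as wide. Of the 25204 merged H3K4me3 regions, 36, or 0.143%, were at least as wide as chr6:4454780-4465744, which has the bounds of the WT replicate 2 peak. In KO replicate 1 the domain was split, with a second peak of 1093 bp on its promoter side. KO replicate 2 alone listed a further peak of 1380 bp, 19048 bp from the window start, as it alone listed 20.6% of H3K4me3 regions. In its list 94.8% of peaks scored at least as high. The covered lengths, 5963 and 10866 bp in KO, against 7756 and 10965 bp in WT, overlapped between genotypes (exact permutation p = 0.667). Relative to the total length of each list they did not overlap, 185 and 206 bp per Mb in KO against 310 and 249 bp per Mb in WT (exact permutation p = 0.333). But the H3K4me3 lists covered more length in KO than in WT of the same number, 32.2 and 52.7 Mb against 25.0 and 44.1 Mb. This scaling therefore lowers KO against WT at any region of like cover. How many other H3K4me3 regions separate after it was not counted. The deposited difference list of WT replicate 1 held the whole 7756 bp peak, the 5th widest of its 1864 peaks, but that of WT replicate 2 did not list it. Over the series, 7.19% of H3K4me3 regions were WT-higher in replicate 1 and 5.07% in replicate 2.

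H3K4me3 and H3K36me3 met over most of the Col1a2 start. Of the H3K4me3-covered bases in the window, 58.3% and 68.1% also lay under H3K36me3 of the same number in KO, and 93.1% and 91.4% did in WT. Both KO values were below both WT values, 63.2% ± 6.94 against 92.3% ± 1.22 (SD, n = 2; exact permutation p = 0.333). In each library the H3K4me3 bases outside H3K36me3 lay before its first base, so these values partly restate the edge shift given above. How many other regions with both marks separate in this way was not counted. Over all chromosomes these shares were 3.34% and 5.11% in KO and 6.16% and 9.95% in WT, so KO was below WT there too. At Col1a1 the marks met in replicate 2, over 37.3% of H3K4me3 bases in KO and 49.3% in WT, and not in replicate 1. At Col3a1 they met in no library.

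**Figure D2:**
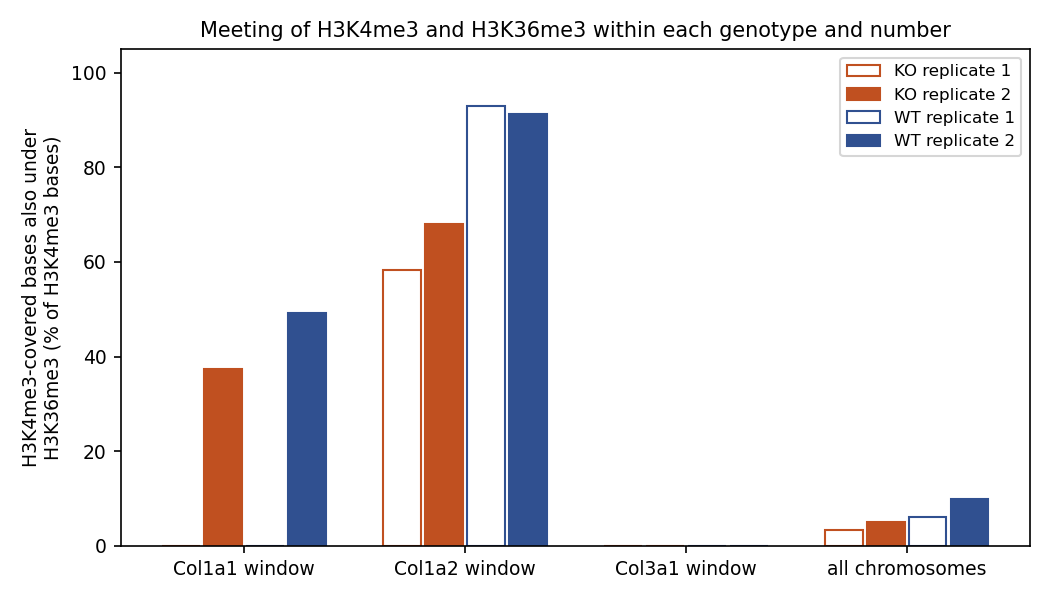
Share of H3K4me3-covered bases that also lay under H3K36me3 of the same genotype and replicate number (y axis, percent) in each window and over all chromosomes. Each bar is 1 library pair, and an absent bar is 0%. Col1a2 stands at 58.3% to 93.1%, against 3.34% to 9.95% over all chromosomes.

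At Col1a1 the H3K4me3 peak was of nearly the same length in either genotype and yet was WT-higher in both replicates. The main peak measured 2712 and 4617 bp in KO, against 2770 and 4914 bp in WT, and its merged region was chr11:94796696-94801609. The lengths followed the replicate number more than the genotype. Both WT difference lists held the full peak of their library, and neither KO difference list held one. Calls of this kind in both replicates were made at 1.12% of the 25204 H3K4me3 regions. By the authors' score, the 2770 bp peak stood at rank 1089 of 1864 in the list of replicate 1 and the 4914 bp peak at rank 420 of 1334 in that of replicate 2, so the former was in the lower part of its list. With scores of at least 160 the call in replicate 1 was lost. Over the whole window H3K4me3 covered 2712 and 6356 bp in KO, against 2770 and 6351 bp in WT (exact permutation p = 1).

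Replicate 2 of both genotypes listed a pair of small H3K4me3 peaks on the low side of the main Col1a1 peak. The nearer spanned 1175 bp in KO and 1209 bp in WT, about 4 kb into the window, and the farther, of 1963 and 1456 bp, reached past the window's low edge. The gene just before Col1a1 in RefSeq's order is the long noncoding RNA Gm46293, and whether these peaks lie in it was not analysed here. Neither peak was in a difference list or in a list of replicate 1.

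H3K36me3 over Col1a1 depended on the library. It covered 0 and 11801 bp in KO, against 4041 and 16230 bp in WT. WT replicate 2 had a single peak of 16230 bp, KO replicate 2 had 3 peaks with gaps of 1632 and 108 bp, WT replicate 1 had 3 short peaks, and KO replicate 1 had none. In each number the WT library listed more bp than the KO library, but the WT lists covered more length in all, and per Mb of the list KO replicate 2 stood at 107 bp and WT replicate 2 at 91.9 bp. The genotypes overlapped in bp (5900.5 ± 8345 bp in KO, 10135.5 ± 8619 bp in WT, SD, n = 2; exact permutation p = 0.667). No difference peak of H3K36me3 was called here in either direction. The pattern of listing, in every library but KO replicate 1, was that of 7.29% of H3K36me3 regions.

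Col3a1 had the sharpest split between replicate numbers. H3K36me3 covered 33727 bp in KO replicate 2 and 30483 bp in WT replicate 2, but 0 bp in KO replicate 1 and 2581 bp in WT replicate 1. The first pair was of a length like that at Col1a2, and the peak of 31309 bp in KO replicate 2 was surpassed or equalled in width by 118 of 35956 peaks. WT replicate 1 had only 3 peaks of 803, 688 and 1090 bp, all in the far part of the window, 34660 to 44878 bp into the window. The genotype means, 16863.5 ± 23849 bp in KO and 16532 ± 19730 bp in WT (SD, n = 2), did not differ beyond this spread (exact permutation p = 1). All 3 short peaks were in the difference list of WT replicate 1, where 5.76% of H3K36me3 regions were called, while WT replicate 2 had no such call. In KO replicate 2 a further H3K36me3 peak of 2418 bp, chr1:45373255-45375672, had no counterpart in any other library and was KO-higher, as were 2.31% of regions in that replicate. Regions listed in KO replicate 2 only made up 3.62% of H3K36me3 regions.

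**Figure D3:**
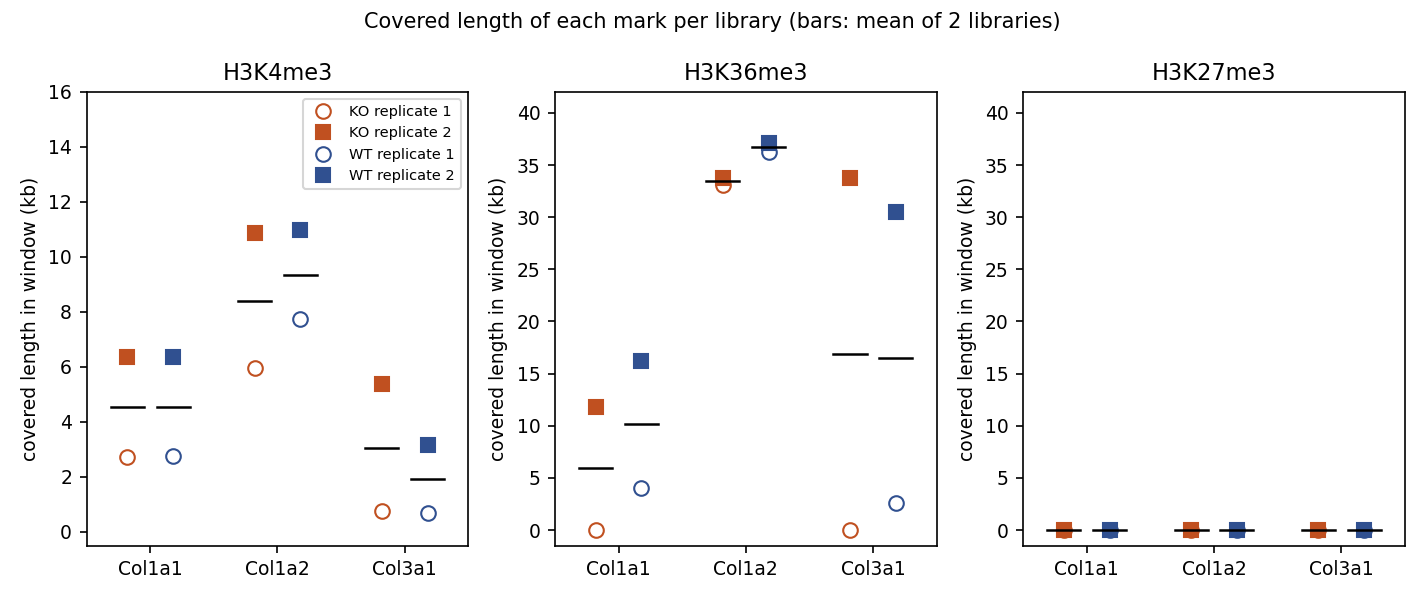
Covered length in kb (y axis) of each mark in the Col1a1, Col1a2 and Col3a1 windows, with 1 point per library and a bar at the mean of the 2 libraries of a genotype; the H3K4me3 panel has its own scale. H3K36me3 at Col1a2 is the only set in which the genotypes do not overlap, 33.1 and 33.8 kb in KO against 36.3 and 37.1 kb in WT, and at Col3a1 the points part by replicate number.

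H3K4me3 at the Col3a1 start was called in opposite directions. It spanned 752 and 5382 bp in KO, against 686 and 3152 bp in WT (exact permutation p = 0.667). In replicate 1 the short KO and WT peaks did not touch: the WT peak ran from 8482 to 9167 bp into the window and the KO peak from 10566 to 11317 bp. Each was in its own library's difference list, so the merged region, chr1:45367845-45373226, was KO-higher and WT-higher in the same replicate, as were 0.0397% of H3K4me3 regions. In replicate 2 the full KO peak of 5382 bp was called KO-higher, and the WT peak was not called. KO-higher calls were frequent in this mark, at 20.7% of H3K4me3 regions in replicate 1, 23.8% in replicate 2 and 10.8% in both. The KO call at Col3a1 in replicate 1 was lost, as was the WT one, with scores of at least 160. Difference peaks of both genotypes, in any replicate, met at 0.183% of regions.

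The KO peaks at the Col3a1 start ended further along the window. Their last bases lay 11317 and 13226 bp into the window, against 9167 and 11247 bp in WT, so the genotypes did not overlap, although KO replicate 1 and WT replicate 2 ended close together (exact permutation p = 0.333). The replicate 1 peaks were weak against extract: 83.5% of peaks in the KO list and 93.1% in the WT list scored at least as high. The WT one, with a score of 133.15, would be lost at scores of at least 160, so the edge could not be compared there. Among the 9567 H3K4me3 regions with 1 peak in each library, 10.6% had the higher edge further along in both KO libraries. Behind the H3K4me3 peak of KO replicate 2 the first H3K36me3 peak began after 28 bp, whereas in WT replicate 2 the marks were 6707 bp apart. That KO peak was the 2418 bp one listed in no other library. The next H3K36me3 peak of KO replicate 2 began 17307 bp into the window, and the first of WT replicate 2 began 17955 bp into it. The edges, widths and centres of widest peaks made up 16 comparisons, which are not independent and whose smallest possible exact p is 0.333, so reaching it sets no comparison apart.

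Of the 9 covered lengths, a mark in a window, 1 had genotypes that did not overlap, H3K36me3 at Col1a2 with WT above KO. The lengths of H3K27me3 were 0 bp in every window and library and so could not separate. Over all regions the genotypes did not overlap, with WT above KO, at 22.7% for H3K36me3 and 0.786% for H3K4me3, and with KO above WT at 2.01% and 12.8%. Relative to the length of each list the count was again 1, but it was H3K4me3 at Col1a2 in place of H3K36me3. The shares over all regions were not counted after this scaling. Each of the 10 difference peaks in the windows matched, base for base, a peak that its own library had against extract. Over all chromosomes this held for 74.6% to 97.8% of the peaks of a difference list, so it is general to these lists.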

How the data were processed

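Per the submitters' processing notes, Bowtie 0.12.7, the mm9 build and MACS (version not given) were used. From each of 12 ChIP libraries the authors deposited its own peaks relative to whole-cell extract and a separate difference list, 24 lists in all. The 4 extract samples were not analysed here. The deposited score of a peak, whose formula is not given, was used only to filter and rank within a list. The control of a difference list is not named; reading it as the opposite genotype is an assumption on which every KO-higher and WT-higher call rests, while covered lengths and edges come from the lists against extract. Deeper or better enriched libraries list more and wider peaks, and depth is unknown.

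Samples were grouped by mark and genotype from their titles. Covered length was counted inside each window on merged peaks of chromosomes 1 to 19 and X, and genotypes were compared with exact two-sided permutation tests without adjustment. Difference calls were counted over all merged regions of a mark. The interval code was tested on simulated data. Python 3.11.15, numpy 2.4.6 and pandas 2.3.3 were used. The named genes were the 3 members. An mm9 annotation was not used here, so other matrix genes and the deleted gene were not analysed. The members, windows and tests were chosen with earlier results of these data known. Alternatives covered the score minimum, window edges, overlap, list scaling, merging, the replicate block and leaving out libraries.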

Additional observations from a re-analysis of the deposited data

How the results depend on the processing

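With 2 libraries per genotype no test could pass 0.05, so only directions and sizes can be compared. H3K36me3 at Col1a2 stayed lower in KO without any 1 library (-3667 to -2837 bp). Scaled to the length of the list, it averaged 70.9 bp per Mb higher in KO, and the genotypes overlapped. Its first base lay 2818 to 3494 bp further along in KO, and the H3K4me3 share under it differed by -33.99 to -24.17 percentage points, without any 1 library; both measures were chosen after seeing the data. The other KO minus WT differences in covered length turned sign with the library left out: H3K4me3 from -1848 to 1796 bp at Col1a1, -3398 to 1506 bp at Col1a2 and -1167 to 3463 bp at Col3a1, and H3K36me3 from -10330 to 1860 bp at Col1a1 and -16532 to 17195 bp at Col3a1. The H3K4me3 difference at Col1a1, -26.5 bp, became 87.5 bp with scores of at least 160, and 59 bp with whole peaks or with windows widened by 5 kb. Widened windows gave an H3K27me3 difference of 2030 bp at Col1a2, from KO replicate 2 alone. In every other library the nearest H3K27me3 peak lay at least 8.07 kb from the window. For H3K4me3, both replicates called 1 region of 6 KO-higher (10.8% of all regions of the mark) and 1 of 6 WT-higher (1.12%). Each count fell to 0 with scores of at least 160. The KO-higher count was also 0 when difference peaks had to cover at least 50% of the region. Shares over all regions were not counted under these settings. By single replicates, 3 and 1 of the 6 H3K4me3 regions were WT-higher, against 7.19% and 5.07% of all regions. KO-higher calls stood at 1 and 1 of the 6, against 20.7% and 23.8%. Of the 4 H3K36me3 regions, 0 and 1 were KO-higher (4.23% and 2.31% of all regions), and 1 and 0 were WT-higher (5.76% and 8.42%). Whether these counts differ from the shares was not tested.

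With the replicate number as a block, the differences were the same and the exact p was 0.5 or 1, 0.5 being the smallest it allows; for H3K36me3 at Col1a2 it was -3252 bp with p = 0.5. The labels do not say that a number marks a shared culture. Over all regions the deviations of same-numbered libraries correlated at 0.25 in H3K4me3, 0.22 in H3K36me3 and 0.51 in H3K27me3. Since replicate 2 had the longer list in each mark and genotype, these values also carry list size. H3K27me3 lists covered 0.7 Mb in KO and 4.7 Mb in WT in replicate 1, against 34.4 and 37.9 Mb in replicate 2. Such correlations therefore cannot decide whether a number marks a shared culture.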
